A study of Mus musculus with 12 samples.

Results

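Malat1, Neat1, Miat, Meg3, Rian, Mirg, Gas5 and Snhg11 are 8 RNAs grouped here as long noncoding that are well represented in adult brain. They were followed in striatal RNA of hemiparkinsonian mice treated with L-DOPA. They were chosen by gene symbol, 8 of 52169 symbols in the deposited table, and their 58 listed transcripts are among 189364 transcripts that carry a symbol. Each gene was read from its transcript with the highest mean level over the 12 libraries. Female C57BL/6J mice had received 6-OHDA, a toxin that destroys dopamine neurons, in the right medial forebrain bundle, under desipramine (25 mg/kg), which protects noradrenaline neurons. After 2 weeks of recovery they received L-DOPA (10 mg/kg) with benserazide (7.5 mg/kg), which blocks the conversion of L-DOPA outside the brain, either once (acute L-DOPA) or daily for 9 days (chronic L-DOPA). RNA came from striatal punches dissected 1 hour after injection, whose number per hemisphere differs between the labels and the study's methods. The 4 groups, with 3 libraries each, were the unlesioned and the lesioned striatum after acute and after chronic L-DOPA, so the unlesioned striatum had also been exposed to L-DOPA and no group was without the drug. The labels count 12 mice for 12 libraries, whereas the study describes the unlesioned side as a control within each mouse. The p-values therefore measure the spread between these libraries.

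Long noncoding RNAs act as RNA, without being translated. The annotation used here (GENCODE, mm9) types Snhg11 as protein coding, and the other members as lincRNA or processed transcript. Malat1 and Neat1 lie next to each other on chromosome 19 and are retained in the nucleus. Malat1 collects in nuclear speckles, which hold splicing factors, and Neat1 forms the core of paraspeckles, bodies that retain RNA and proteins. Miat, also called Gomafu, is a nuclear RNA of neurons. Meg3, Rian and Mirg are expressed from the maternal copy of the imprinted Dlk1-Dio3 domain and are the hosts of many microRNAs and snoRNAs, whereas Gas5 and Snhg11 carry snoRNAs in their introns.

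The libraries held between 87695043 and 173116525 counts over all transcripts, a read being counted on every transcript it overlaps. The members held between 188 counts (Mirg) and 50648 counts (Meg3) in a library. The kit used for the libraries selects polyadenylated RNA and does not record the strand, so reads from overlapping genes on opposite strands could not be told apart. Markers of striatal spiny neurons summed to between 1836 and 2600 counts per 1000000 (CPM) in every library, and cortical glutamatergic markers to between 6.85 and 50.4 CPM. The cortical sum was lower on the lesioned side in 6 of 6 same-numbered pairs. It went from 38.3 to 24.0, from 19.4 to 8.69 and from 18.9 to 8.79 CPM in replicates 1, 2 and 3 of the acute schedule, and from 31.1 to 29.2, from 12.6 to 8.52 and from 50.4 to 6.85 CPM in those of the chronic schedule. The immediate early genes Fos, Fosb, Junb, Egr1, Arc and Npas4, which neurons induce on stimulation, were higher on the lesioned side after either schedule, 6 of 6 each time. Markers of the choroid plexus stood at 480.3 CPM in replicate 2 of the unlesioned striatum after chronic L-DOPA and at 11.7 CPM or less in every other library.

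Malat1 is a single exon of 6982 bases at chr19:5795690-5802671 (mm9, minus strand). Its listed sequence holds 1 run of 8 or more A, a stretch of 12 at bases 6673 to 6684 counted from the 5′ end. The mature RNA is known to end near such a genomically encoded A-rich tract, without a poly(A) tail, and the U-rich bases before it fold onto it. The stretch is shown because the level of Malat1 differed along its length, as described further on. It covers chr19:5795968-5796087 on the minus strand of mm9 and is written 5′ to 3′ with the A run in capitals.
Malat1 3′ tract: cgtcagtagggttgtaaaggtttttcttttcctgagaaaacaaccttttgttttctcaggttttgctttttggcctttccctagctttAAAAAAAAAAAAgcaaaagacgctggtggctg

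Miat spans chr5:112642248-112657968 (mm9, minus strand) in 7 exons. It is known for repeats of the letters TACTAAC, the form of the intron branch point to which splicing factor SF1 binds in RNA. Read on the transcribed strand, the span held 6 of these heptamers, all within the last exon (chr5:112642248-112649255), which is 0.382 per kb of span. The spans of the other members, introns included, held between 0 and 2, with 1 in Gas5 (0.297 per kb) and 2 in Rian (0.0346 per kb). The 2 groups of repeats are printed with the heptamers in capitals, from the minus strand at chr5:112646327-112646482 and chr5:112645770-112645834.
Miat repeats, first group: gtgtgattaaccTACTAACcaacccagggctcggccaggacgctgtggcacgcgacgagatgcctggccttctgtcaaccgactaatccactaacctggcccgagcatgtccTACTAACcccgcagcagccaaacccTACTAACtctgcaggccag
Miat repeats, second group: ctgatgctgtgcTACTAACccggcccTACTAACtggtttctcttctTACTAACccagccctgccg

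The host RNAs are shown by what they carry. The annotation (GENCODE, mm9) placed 2 microRNA genes within Meg3, 4 within Rian with 13 snoRNA genes, 9 microRNA genes within Mirg, 9 snoRNA genes within Gas5 and 2 within Snhg11. Of the 15 hosted microRNA genes, 12 were found among the RefSeq mature sequences (GRCm38.p6). They give 22 mature microRNAs with 22 different seeds, so no pair shared a seed. From each imprinted host, 1 or more mature sequences are printed with the seed (bases 2 to 8) in capitals, miR-770 from Meg3, miR-370 from Rian and the others from Mirg.
mmu-miR-770-3p: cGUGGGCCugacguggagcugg
mmu-miR-370-3p: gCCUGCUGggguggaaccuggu
mmu-miR-154-5p: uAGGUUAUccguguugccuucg
mmu-miR-377-3p: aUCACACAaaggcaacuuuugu
mmu-miR-410-3p: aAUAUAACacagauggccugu

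Of the snoRNAs within Gas5, Snord47 has a row of its own in the table (chr1:162968223-162968287, mm9, plus strand). It is a box C/D snoRNA, a guide for methylation of ribosomal RNA, and its C box and D box are in capitals. It had 42 counts over the 12 libraries, too few to pass the filter on low counts.
Snord47: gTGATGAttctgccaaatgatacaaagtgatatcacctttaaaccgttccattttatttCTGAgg

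Promoters from 250 bases before to 50 bases after the start were found in RefSeq (GRCm38.p6) for 7 members, with 9 entries because Meg3 and Gas5 have 2 each. Neat1 is the member without an entry. They were searched on both strands for TGACGTCA, the cyclic AMP response element, for TGACG, which is contained in it, and for the AP-1 motif TGANTCA. TGACGTCA was in 1.79%, TGACG in 20.8% and TGANTCA in 7.81% of 32851 promoters. TGACGTCA was in 1 of the 2 Meg3 entries and in 1 of the 2 Gas5 entries. The Malat1 promoter held 3 matches to TGACG and none to the longer motifs, and the promoters of Miat, Rian, Mirg and Snhg11 held no match to any of them. A match is a description of the letters. The Malat1 promoter (chr19:5802623-5802922 of GRCm38.p6, minus strand) is printed with the matches in capitals, those on the opposite strand reading CGTCA.
Malat1 promoter: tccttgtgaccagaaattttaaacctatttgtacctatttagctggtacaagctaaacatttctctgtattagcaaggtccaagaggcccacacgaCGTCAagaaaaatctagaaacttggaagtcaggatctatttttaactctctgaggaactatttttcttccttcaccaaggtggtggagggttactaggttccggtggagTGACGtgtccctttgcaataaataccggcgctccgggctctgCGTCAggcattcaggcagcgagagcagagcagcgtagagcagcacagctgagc

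**Figure D1:**
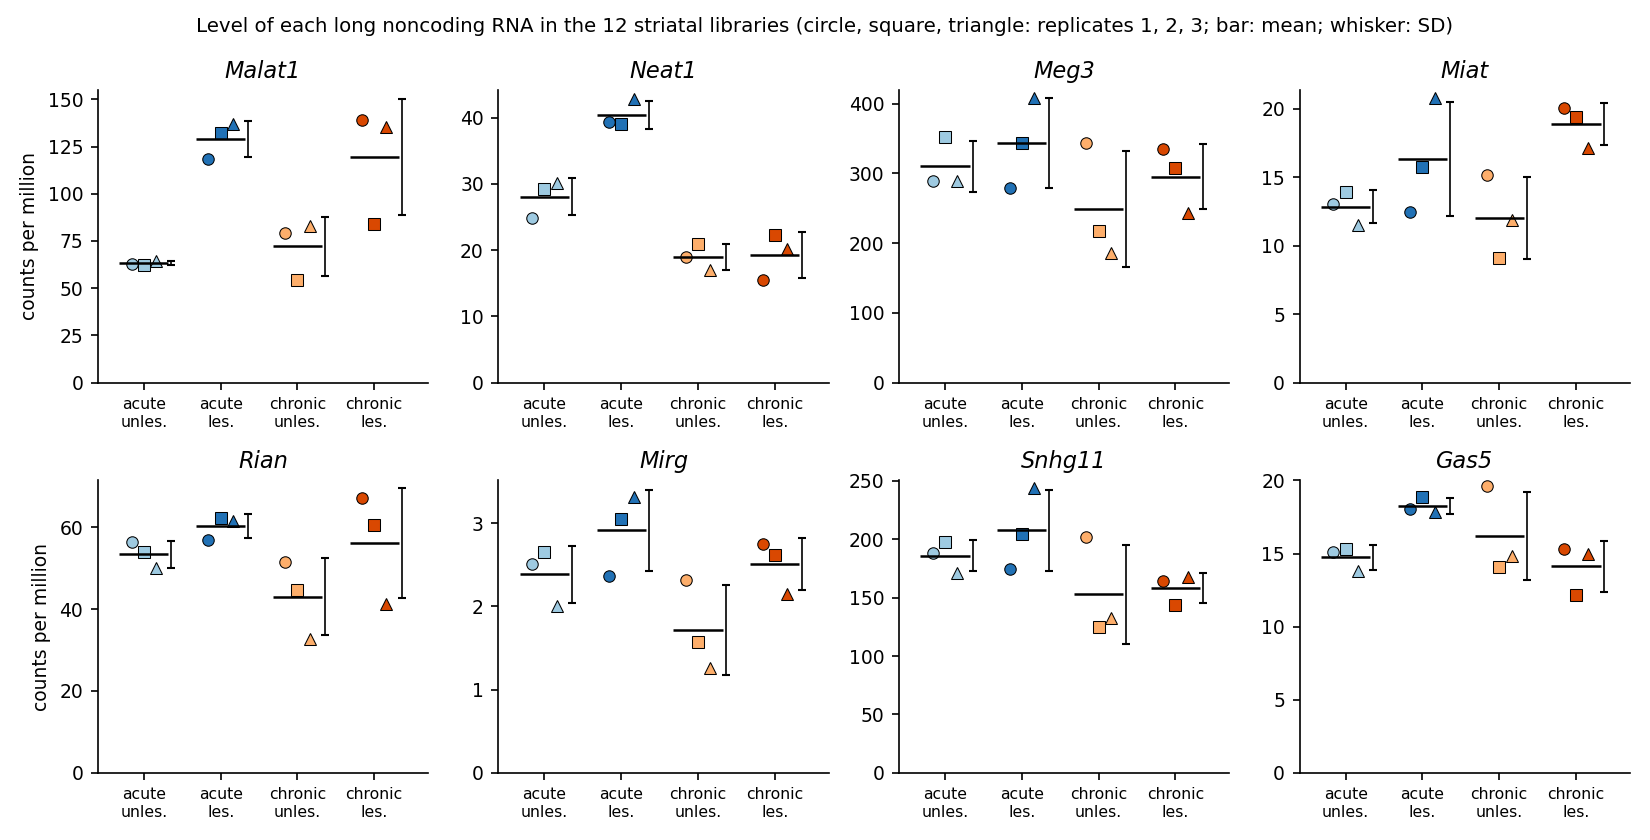
Level of each member in CPM (y axis) in the 12 libraries by group (x axis), with replicates 1, 2 and 3 as circle, square and triangle, the mean as a bar and the SD as a whisker. Malat1 was higher in every lesioned library than in any unlesioned library, and Neat1 was lower in every library after chronic than after acute L-DOPA.

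The members differed widely in level. Divided by transcript length, mean levels over the 12 libraries were 30.1 CPM per kb for Snhg11, 26.3 for Meg3, 14.9 for Rian, 13.8 for Malat1, 8.39 for Neat1, 6.20 for Gas5, 1.83 for Mirg and 1.72 for Miat. Between neighbours in this order the ranges over libraries overlapped, with the exception of Gas5 and Mirg. Meg3 was above Rian in 12 of 12 libraries, whereas Rian was above Malat1 in 6 of 12.

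After acute L-DOPA, Malat1, Neat1 and Gas5 rose in the lesioned striatum and none of the 8 members fell. The comparison asks how the dopamine-depleted striatum differs from the intact one 1 hour after a single dose. It was fitted with the quasi-likelihood test of edgeR on all 129674 transcripts tested, a transcript being called at a Benjamini-Hochberg adjusted p under 0.05. Of all transcripts 12.9% were called, 6.85% higher and 6.02% lower, against 3 of 8 members called higher. The median log2 fold change was 0.30 over the members and 0.01 over all transcripts tested. The groups did not overlap in 4 of 8 members, against 32.6% of all transcripts. In tissue punches, more RNA per cell and more cells of a type cannot be told apart.

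Malat1, the RNA of nuclear speckles, was at 62.6, 62.4 and 64.4 CPM in the unlesioned striatum of replicates 1, 2 and 3 after acute L-DOPA. In the lesioned striatum it was at 118.3, 132.1 and 136.9 CPM. Every lesioned library was thus well above every unlesioned one, and the unlesioned libraries hardly differed among themselves. The log2 fold change was 1.04 (SE 0.07, adjusted p = 7.5e-07), or 2.05-fold, and it remained between 0.99 and 1.10 when any library was left out.

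Neat1, the RNA of paraspeckles, was at 24.9, 29.2 and 30.1 CPM in the unlesioned and at 39.3, 39.1 and 42.8 CPM in the lesioned striatum of acutely treated mice. The groups did not overlap. The difference on the log2 scale was 0.53 (SE 0.08, adjusted p = 0.00082). All 7 listed Neat1 transcripts, which share reads and are not separate results, were called higher, by 0.52 to 0.53.

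Gas5, a host of box C/D snoRNAs, stood at 15.1, 15.3 and 13.8 CPM in the unlesioned and at 18.1, 18.9 and 17.9 CPM in the lesioned striatum. The 2 groups did not overlap, with a log2 fold change of 0.31 (SE 0.06, adjusted p = 0.00772). In a fit over all 12 libraries the adjusted p was 0.109.

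The other members were not called after acute L-DOPA. Miat was at 13.03, 13.9 and 11.5 CPM in the unlesioned and at 12.5, 15.8 and 20.8 CPM in the lesioned striatum (log2 fold change 0.35, SE 0.14, adjusted p = 0.132). Replicate 1 of the lesioned striatum lay within the unlesioned range, and without it Miat reached 0.52 (adjusted p = 0.00895) and Mirg 0.42 (adjusted p = 0.0484). Meg3, Rian, Mirg and Snhg11 had log2 fold changes between 0.15 and 0.28, with adjusted p-values from 0.101 to 0.457. For Meg3 the interval of 2 SE around the estimate ran from -0.09 to 0.39, and for Snhg11 from -0.05 to 0.37. The cortical marker sum was lower on the lesioned side in all 3 pairs of this comparison, as given above. Of its 10 markers 1 was called higher and 1 lower, against 6.85% and 6.02% of all transcripts. Slc17a7 went from a mean of 14.7 to 5.03 CPM, whereas Cux2 went from 2.37 to 3.02 CPM. With the cortical score as a covariate the estimates of Meg3 and Snhg11 turned negative (-0.14 and -0.04), while Malat1, Neat1 and Gas5 remained called.

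After chronic L-DOPA, Malat1 and Miat were higher in the lesioned striatum and Neat1, Snhg11 and Gas5 were not called in either direction. This comparison covers mice given L-DOPA for 9 days, the schedule that produces dyskinesia in this model. Of 127063 transcripts tested, 12% were called, 7.71% higher and 4.33% lower, against 2 of 8 members called higher. The median log2 fold change of the members was 0.32, and that of all transcripts -0.02. The groups did not overlap in 2 of 8 members, against 30.8% of all transcripts.

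Malat1 was at 79.4, 54.3 and 82.9 CPM in the unlesioned striatum after chronic L-DOPA and at 138.9, 84.1 and 135.4 CPM in the lesioned striatum. Replicate 2 was low in both groups, and its lesioned library was only just above the highest unlesioned library. The log2 fold change was 0.73 (SE 0.20, adjusted p = 0.0383). Leaving out replicate 2 of the lesioned striatum gave 0.94 (adjusted p = 0.00169), and leaving out any other library ended the call, with adjusted p from 0.0616 to 0.146, as did DESeq2 (adjusted p = 0.0636) and summed transcripts (adjusted p = 0.0792). Within pairs of libraries with the same number the log2 difference was 0.81, 0.63 and 0.71, and a block for the replicate number gave 0.72 (SE 0.06, adjusted p = 5.97e-06).

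Miat was at 15.1, 9.12 and 11.9 CPM in the unlesioned and at 20.1, 19.4 and 17.2 CPM in the lesioned striatum of chronically treated mice. No lesioned library reached down to the unlesioned range. The log2 fold change was 0.65 (SE 0.15, adjusted p = 0.0205). The 5 of 5 listed Miat transcripts that were called, by 0.65 to 0.70, share reads and are not separate results. Miat lost the call without replicate 1 of the lesioned striatum (0.61, adjusted p = 0.0696) or without replicate 3 of the unlesioned striatum (0.64, adjusted p = 0.0776). The summed level of 5 general neuronal markers was 860.2 to 871.5 CPM in the unlesioned and 953.2 to 1020 CPM in the lesioned striatum of the chronic schedule, without overlap, and their part in the result was not tested. Of the 5 markers 2 rose, Snap25 by 0.35 and Tubb3 by 0.69, against 7.71% of all transcripts, whereas Syt1 was lower without overlap and not called (-0.25, adjusted p = 0.101) and Rbfox3 had -0.04.

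The 3 RNAs of the Dlk1-Dio3 domain were not called after chronic L-DOPA but became so once the replicate number was taken into account. Rian was at 51.4, 44.7 and 32.8 CPM in the unlesioned and at 67.1, 60.5 and 41.2 CPM in the lesioned striatum. The groups overlapped, yet the lesioned library was higher in 3 of 3 pairs, by 0.38, 0.44 and 0.33 on the log2 scale. The estimate was 0.39 (SE 0.19, adjusted p = 0.227) without and 0.38 (SE 0.06, adjusted p = 0.000698) with the replicate block.

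Mirg, the distal microRNA host, was at 2.32, 1.57 and 1.26 CPM in the unlesioned and at 2.75, 2.62 and 2.15 CPM in the lesioned striatum under chronic treatment. Replicate 1 of the unlesioned striatum overlapped the lesioned range. Its log2 fold change was 0.55 (SE 0.20, adjusted p = 0.107), and with the block 0.58 (SE 0.12, adjusted p = 0.00543). Without replicate 1 of the unlesioned striatum it was 0.82 (adjusted p = 0.0135).

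Meg3, the proximal and most abundant of the 3, was at 343.4, 217.1 and 186.1 CPM in the unlesioned and at 334.9, 307.6 and 243.8 CPM in the lesioned striatum under chronic treatment. The ranges overlapped widely, and the lesioned library was higher in 2 of 3 pairs. Its estimate was 0.25 (SE 0.20, adjusted p = 0.49), and with the block 0.29 (SE 0.09, adjusted p = 0.0385). Without replicate 1 of the unlesioned striatum it was 0.55 (adjusted p = 0.0441). With the block 21.6% of all transcripts were called in this comparison, against 5 of 8 members.

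Neat1 after chronic L-DOPA was at 18.96, 21.0 and 16.9 CPM in the unlesioned and at 15.4, 22.2 and 20.1 CPM in the lesioned striatum. The lesioned libraries lay on both sides of the unlesioned ones. The estimate was 0.03, with an interval of 2 SE from -0.24 to 0.29, and it turned negative with the cortical score as a covariate (-0.26, adjusted p = 0.205), without replicate 2 (-0.08) or replicate 3 (-0.00) of the lesioned striatum and without replicate 3 of the unlesioned striatum (-0.05). Snhg11 had 0.05 (interval -0.27 to 0.37) and Gas5 -0.19 (interval -0.46 to 0.07). Snhg11 turned negative without replicate 2 (-0.08) or replicate 3 (-0.04) of the unlesioned striatum.

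**Figure D2:**
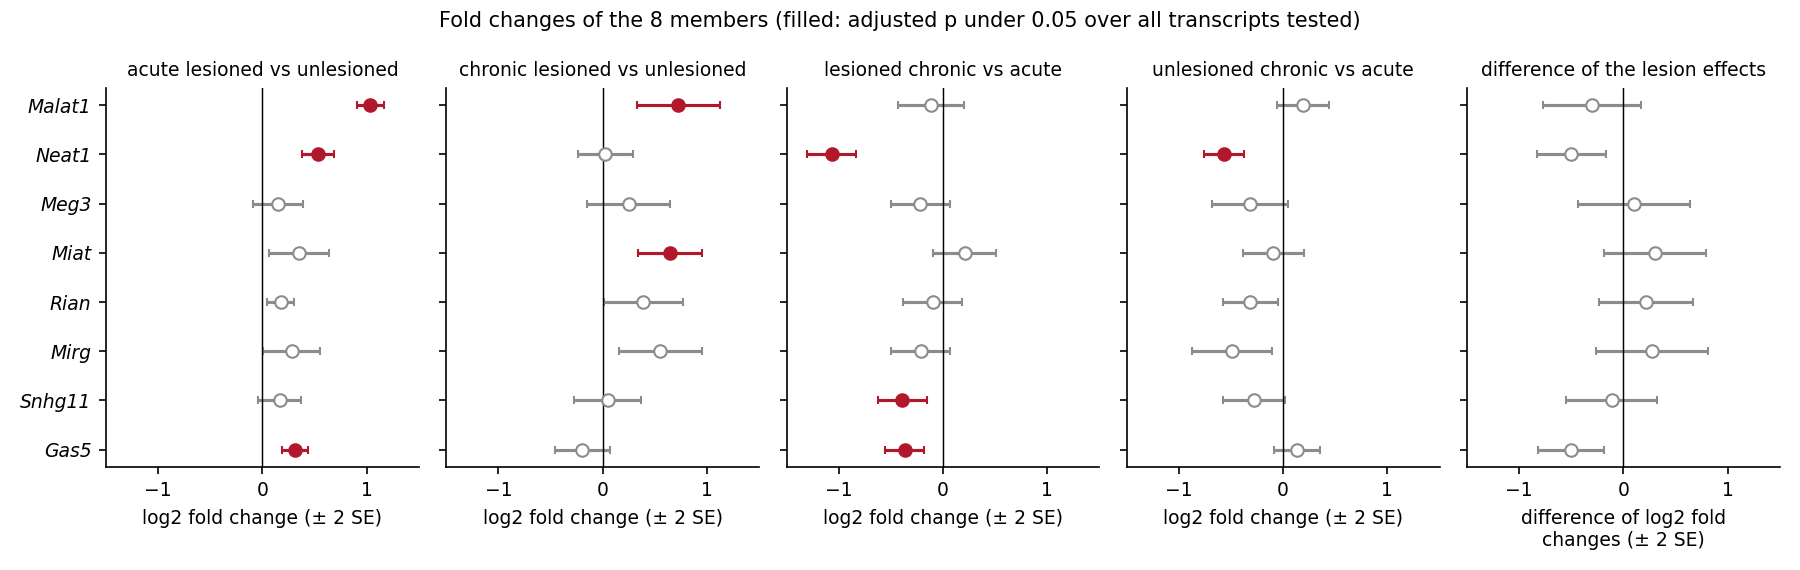
Log2 fold change of each member (x axis, with bars of 2 SE) in the 4 comparisons of groups and in the difference of the lesion effects, filled where the adjusted p over all transcripts tested was under 0.05. Malat1 was called in both lesion comparisons (1.04 and 0.73), and Neat1 was called lower under the chronic than under the acute schedule, in the lesioned (-1.07) and in the unlesioned striatum (-0.57).

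Whether the lesion effects themselves differed between acute and chronic L-DOPA was tested as an interaction over all 12 libraries. Of 130867 transcripts 4.52% were called, 3.22% higher and 1.3% lower, and none of the 8 members. At an unadjusted p under 0.05 there were 2, Neat1 (-0.50, SE 0.17, adjusted p = 0.106) and Gas5 (-0.50, SE 0.16, adjusted p = 0.0946). DESeq2 called both, with adjusted p of 0.049 and 0.0494. In edgeR Neat1 was also called with the cortical score as a covariate (-0.56, adjusted p = 0.0113) and without replicate 2 of the chronic lesioned striatum (-0.61, adjusted p = 0.0331), and Gas5 without replicate 2 of the chronic unlesioned striatum (-0.59, adjusted p = 0.0492). When the fit also held a block for the replicate number in each treatment, 12.1% of all transcripts and 3 members were called, each with a smaller lesion effect under the chronic schedule. They were Malat1 (-0.31, adjusted p = 0.0243), Neat1 (-0.51, adjusted p = 0.0129) and Gas5 (-0.49, adjusted p = 0.00495). For Miat the difference was 0.30 in the opposite direction, with an interval from -0.19 to 0.79.

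Between the schedules, Neat1 was the member that differed most. In the lesioned striatum 3 of 8 members were lower under the chronic schedule, against 23.3% of 127463 transcripts called, 12.1% higher and 11.2% lower. The groups did not overlap in 3 of 8 members, against 40.3% of all transcripts. Neat1 went from 39.1 to 42.8 CPM after acute L-DOPA to between 15.4 and 22.2 CPM after chronic L-DOPA. No library of one schedule came near those of the other. The log2 fold change was -1.07 (SE 0.12, adjusted p = 0.000159), which is 0.477-fold, and it remained between -1.18 and -0.93 without any one library.

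Gas5 and Snhg11, the snoRNA hosts, also fell in the lesioned striatum from acute to chronic L-DOPA. Gas5 was at 17.9 to 18.9 CPM after acute and at 15.3, 12.1 and 15.0 CPM after chronic L-DOPA (log2 fold change -0.37, SE 0.09, adjusted p = 0.0171). Without replicate 2 of the acute lesioned striatum its adjusted p was 0.0728. Snhg11 was at 174.4, 204.5 and 243.9 CPM after acute and at 164.2, 143.5 and 167.5 CPM after chronic L-DOPA (-0.39, SE 0.12, adjusted p = 0.0337). The highest chronic library was just below the lowest acute one, and leaving out any single library other than replicate 1 of the acute lesioned striatum ended the call, with adjusted p from 0.0534 to 0.117. So did a fit over all 12 libraries (adjusted p = 0.0748) and the sum of its transcripts (adjusted p = 0.0646). Malat1 did not pass the test (-0.11, interval -0.43 to 0.21), nor did Miat (0.21), Meg3 (-0.22), Rian (-0.10) or Mirg (-0.21). Malat1 without replicate 2 (0.09) and Rian without replicate 3 (0.08) of the chronic lesioned striatum turned positive, and Miat without replicate 3 of the acute lesioned striatum was called (0.42, adjusted p = 0.0307).

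In the unlesioned striatum Neat1 was the 1 member called, against 2.61% of 129187 transcripts, 0.968% higher and 1.64% lower. It was at 24.9, 29.2 and 30.1 CPM after acute and at 18.96, 21.0 and 16.9 CPM after chronic L-DOPA. The groups did not overlap, as in 26.2% of all transcripts, and the log2 fold change was -0.57 (SE 0.10, adjusted p = 0.019). The estimate ranged from -0.65 to -0.49 as each library was left out, and the call was kept only without replicate 2 of the chronic unlesioned striatum, the adjusted p otherwise lying between 0.0578 and 0.0969. With its transcripts summed the adjusted p was 0.0552. Without the same library Malat1 was called (0.36, adjusted p = 0.00441), and without replicate 1 of that group Meg3 (-0.62, adjusted p = 0.0461) and Snhg11 (-0.52, adjusted p = 0.037) were. The other 7 members ranged from -0.49 (Mirg) to 0.19 (Malat1) with all libraries.

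Several sets of cell type markers moved with Neat1 in some comparisons, those of microglia, oligodendrocytes, astrocytes and blood, and their part in its result was not tested. The summed level of 8 microglial markers was 75.6 to 79.0 CPM in the unlesioned and 84.2 to 98.8 CPM in the lesioned striatum of acutely treated mice, and 50.7 to 66.3 and 53.2 to 67.6 CPM after chronic L-DOPA. From acute to chronic L-DOPA 6 of these 8 markers fell in the lesioned and 3 of 8 in the unlesioned striatum. The 10 oligodendrocyte markers summed to 2236 to 3675 CPM in the acute and 1229 to 2214 CPM in the chronic lesioned striatum, and 10 of 10 fell between them. Astrocyte markers fell between the schedules in 3 of 8 cases in the lesioned and in 2 of 8 in the unlesioned striatum. Blood markers summed to 5.31 to 10.5 CPM in the acute and 1.87 to 3.66 CPM in the chronic lesioned striatum. Of these, 4 of 5 fell in the lesioned striatum and none was called in the unlesioned striatum. Of all transcripts 11.2% were lower in the lesioned and 1.64% in the unlesioned striatum in these comparisons. In the unlesioned striatum, where Neat1 was called, the oligodendrocyte sums of the 2 schedules overlapped (2201 to 2451 CPM acute, 1648 to 2354 CPM chronic) and none of the 10 markers was called. In the lesion comparison after acute L-DOPA, 3 of 8 microglial, 3 of 10 oligodendrocyte and 3 of 8 astrocyte markers rose, against 6.85% of all transcripts. Replicate 3 of the acute lesioned striatum, with an oligodendrocyte sum of 2236 CPM, lay within the acute unlesioned range. In the lesion comparison after chronic L-DOPA, where Neat1 was not called, no microglial or oligodendrocyte marker was called and 1 of 8 astrocyte markers rose, against 7.71% of all transcripts. That marker was Gfap, an intermediate filament of reactive astrocytes, with means of 14.1 CPM in the unlesioned and 54.8 CPM in the lesioned striatum (log2 fold change 1.96, SE 0.24, adjusted p = 0.000445). The 8 astrocyte markers summed to 637.5 to 727 CPM in the unlesioned and 740.4 to 772.5 CPM in the lesioned striatum under chronic treatment, and to 638.6 to 695.6 and 711.1 to 892.5 CPM under acute treatment. The astrocyte sums did not overlap between the sides under either schedule.

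**Figure D3:**
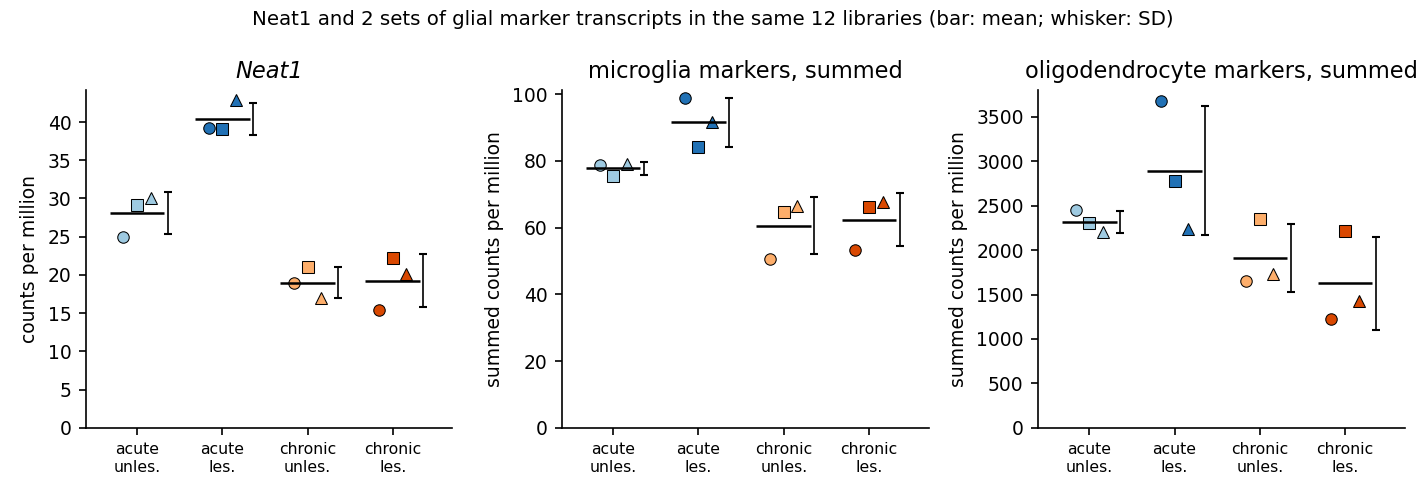
Neat1 in CPM and the summed CPM of 8 microglial and 10 oligodendrocyte marker transcripts (y axes) in the 12 libraries by group (x axis), with replicates 1, 2 and 3 as circle, square and triangle, mean and SD. The acute lesioned libraries, with Neat1 at 39.1 to 42.8 CPM, also had the highest microglial sums, 84.2 to 98.8 CPM.

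The reads counted on Neat1 lie in the region of its short form, which the long form shares. The listed transcripts cover chr19:5842302-5845478 (mm9, minus strand, 3177 bases), whereas the annotated gene runs on to position 5824708. In that body, which belongs to the long form needed for paraspeckles and lacking a poly(A) tail, the table lists 2 clones. The first, at chr19:5838075-5840178, had 16 counts over the 12 libraries and the second, at chr19:5834118-5835940, had 3, against 1355 to 5179 counts on the short form in each library. Changes of the long form were therefore not detectable in these libraries. The 3′ end of the listed form is also covered, on the opposite strand, by LOC100502960, which was at 6.997 CPM per kb in its shorter transcript and had log2 fold changes of 0.59 after acute L-DOPA and -1.19 and -0.72 between the schedules. Over the 7 Neat1 transcripts, 1 of which is overlapped by no other listed gene, the last 2 were -1.09 to -1.05 and -0.60 to -0.52.

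Malat1 did not change evenly along its length. The table lists 5 shorter clones within it, in the order AK020134, AK008790, AK020483, AK090111 and AK141413 from the 5′ to the 3′ end. After acute L-DOPA they were higher in the lesioned striatum by 1.23, 1.22, 1.33, 0.61 and 0.21 on the log2 scale, and all 5 were called. After chronic L-DOPA the differences were 0.79, 0.79, 0.88, 0.54 and 0.43, and the first 3 were called. The 3′ clone AK141413, bases 4918 to 6672 and ending just before the A run printed above, was at 6.76, 6.48 and 7.03 CPM per kb in the unlesioned and at 7.89, 7.49 and 7.98 CPM per kb in the lesioned striatum of acutely treated mice. The 5′ clone AK020134, bases 75 to 869, was at 9.61, 9.10 and 8.47 CPM per kb in the unlesioned and at 20.3, 20.5 and 22.8 CPM per kb in the lesioned striatum. In the acute comparison the difference was thus larger in the first 3 clones, with its highest value in the middle clone AK020483, than in the 2 nearest the 3′ end, and in the chronic comparison the clones differed less from each other.

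**Figure D4:**
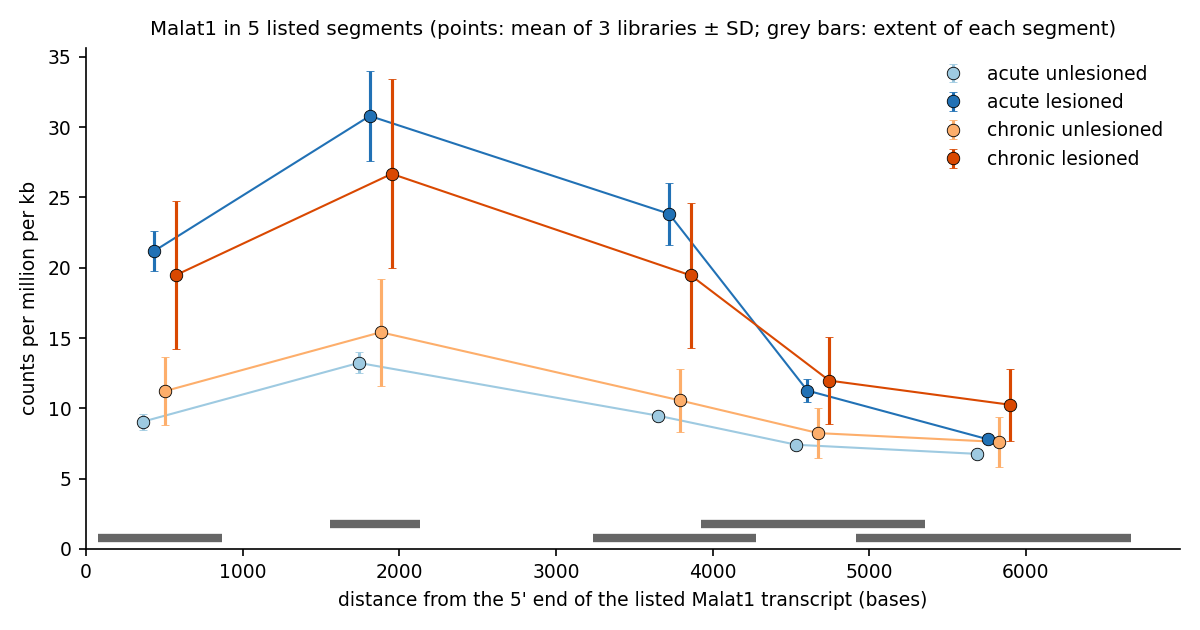
Mean level (CPM per kb, ± SD over 3 libraries) of the 5 shorter Malat1 clones against their distance in bases from the 5′ end of the listed transcript, by group, with grey bars for the extent of each clone. After acute L-DOPA the lesioned and unlesioned means stood at 21.2 and 9.06 CPM per kb in the 5′ clone and at 7.79 and 6.76 CPM per kb in the 3′ clone.

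Expressed as the log2 ratio of the 5′ to the 3′ clone in each library, Malat1 had a mean of 0.42 ± 0.13 (SD, n = 3) in the unlesioned and 1.44 ± 0.08 in the lesioned striatum of acutely treated mice. After chronic L-DOPA the means were 0.56 ± 0.28 and 0.92 ± 0.15. In same-numbered chronic pairs the unlesioned and lesioned ratios were 0.87 and 1.09, 0.49 and 0.89, and 0.33 and 0.79. The permutation test given below does not use these pairs. The acute lesioned libraries lay above all others, at 1.36, 1.45 and 1.52. The exact two-sided permutation test gave p = 0.10 for the acute lesion comparison and for the lesioned striatum between schedules, the smallest value that 3 against 3 libraries allow, and p = 0.20 for the chronic lesion comparison. Over the 16 ratio tests of 4 members the adjusted p was 0.27 or more. The same ratio for Neat1 (AK148054 over AK018202) ranged from 0.06 to 0.22 over the 12 libraries, without overlap between the schedules in the unlesioned striatum (means 0.08 and 0.17, exact permutation p = 0.10), and that for Snhg11 from -1.60 to -1.20. Meg3 (AK157178 over AK019336) went from a mean of -0.19 ± 0.18 in the unlesioned to 0.11 ± 0.04 in the lesioned striatum under chronic treatment (exact permutation p = 0.10), without overlap. It also lacked overlap in the acute lesion comparison, from -0.19 ± 0.08 to -0.05 ± 0.04, and in the lesioned striatum between the schedules (both exact permutation p = 0.10). An opposite-strand gene of the annotation, Gm20417 (chr19:5797562-5798549), lies under the clone AK090111. It reaches only the start of the 3′ clone AK141413 (chr19:5796000-5797754) and not the 5′ clone, and its part in the ratio was not tested.

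**Figure D5:**
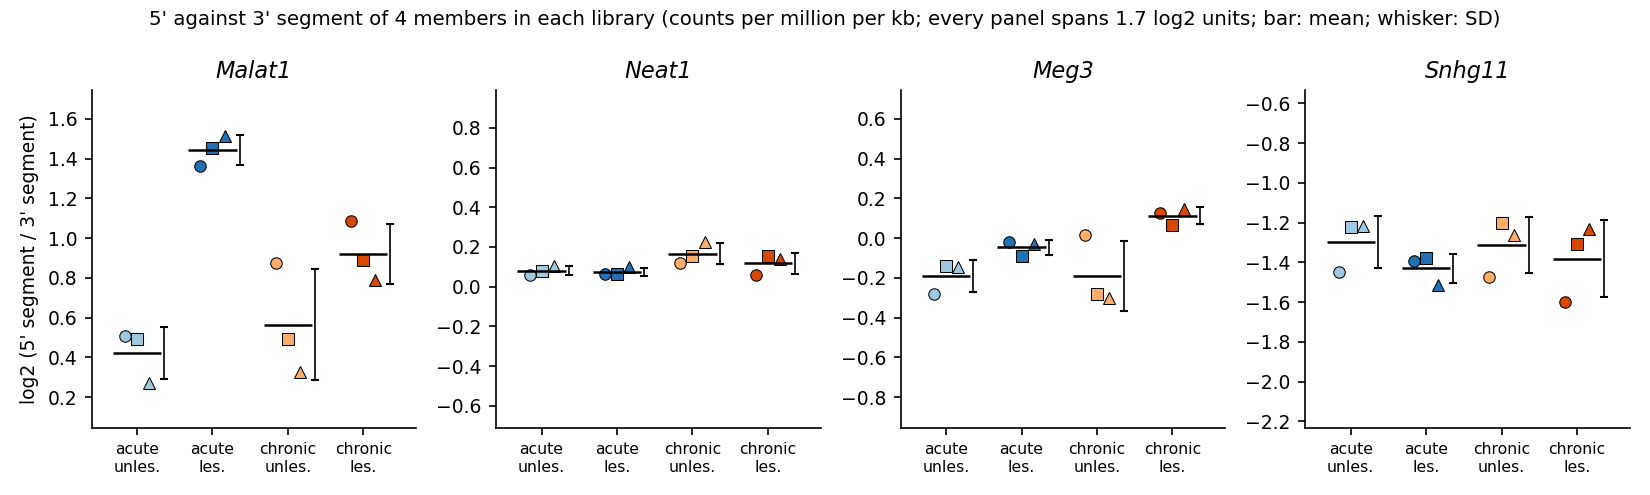
Log2 ratio of a 5′ to a 3′ clone (y axis, CPM per kb) of Malat1, Neat1, Meg3 and Snhg11 in the 12 libraries by group (x axis), with replicates 1, 2 and 3 as circle, square and triangle, mean and SD. In Malat1 the 3 acute lesioned libraries, at 1.36 to 1.52, stood above the 9 others, whose highest value was 1.09.

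Other listed genes share sequence with the members. At the 5′ end of Malat1, 4 clones of 229 to 239 bases on the same strand carry the symbol Ramp2, and after acute L-DOPA they were higher by 1.10 to 1.12 and after chronic L-DOPA by 0.83 to 0.85. The sequence of these clones is that of Malat1. Within the span of Rian lie AK034848, AK049674 and C130089L09Rik, each at 0.562 CPM per kb or less against 14.9 for Rian, and within Meg3 lies AK086356 at 0.0324 CPM per kb against 26.3. None of these 4 was called in any of the 5 comparisons.

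Among the members themselves, Meg3, Rian and Mirg varied together over the 12 libraries. Pearson's r of log2 CPM was 0.93 for Meg3 with Mirg, 0.85 for Meg3 with Rian and 0.89 for Rian with Mirg. After the group means were removed r was 0.95, 0.77 and 0.79. These values describe libraries that share depth, dissection and, within a treatment, replicate number. Malat1 and Neat1, although neighbours on the chromosome, had r = 0.20 over all libraries and -0.64 within groups. Snhg11 went with Meg3 (0.84) and, within groups, with Miat (0.85).

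The genes whose pattern over the 12 libraries was most like that of a member, among about the same 12794 genes with a mean of at least 1 CPM, were named by rank. For Malat1 they were Tac1 (r = 0.96), the substance P precursor of striatonigral neurons, Rem2 (0.96), a small GTPase, and 2010204K13Rik (0.95). For Neat1 they were Mdk (0.98), the growth factor midkine, Nr1h2 (0.97), the liver X receptor beta, and Ctsz (0.97), a lysosomal protease. For Mirg they were Srsf1 (0.95), a splicing factor, Meg3 (0.93) and Dlx6os1 (0.92), and for Rian Mirg, Dlx6os1 (0.87) and Srsf1 (0.86). For Gas5 they were Trnau1ap (0.91), Snhg12 (0.90), another snoRNA host, and Clcc1 (0.88). Meg3 was most like Gm3478 (0.96), 4932422M17Rik (0.93) and Mirg, Miat most like Wdr90 (0.92), Wsb1 and Zfp711 (both 0.91), and Snhg11 most like Akap8 (0.94), Sfrs18 (0.90) and Idua (0.89).

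Lists of partners and neighbours of the members were read from the same fits. Of 12 nuclear speckle proteins, 6 rose and none fell with the lesion after acute L-DOPA and 2 rose after chronic L-DOPA, against 6.85% and 7.71% of all transcripts called higher, with list medians of 0.21 and 0.18. Srsf5, a splicing factor, was higher by 0.71 and 0.60, and Srsf7, another of the same family, by 0.50 and 0.38. In the lesioned striatum 4 of 12 were lower under the chronic schedule, against 11.2% of all transcripts, among them Srsf7 (-0.58). In the unlesioned striatum 1 of 12 was lower, again Srsf7 (-0.46, adjusted p = 0.0272), against 1.64% of all transcripts. Of 11 paraspeckle proteins, 2 rose and 1 fell after acute L-DOPA, where 12.9% of all transcripts were called, and 1 rose after chronic L-DOPA. Sfpq, which is required for paraspeckles, was higher by 0.41 and 0.42, and Zc3h6 was lower by 0.49 in the acute comparison. In the lesioned striatum between the schedules 2 of 11 paraspeckle proteins were lower and 1 higher, a share near the 23.3% of all transcripts called. In the unlesioned striatum 2 were lower, Tardbp by 0.49 and Sfpq by 0.35, against 1.64% of all transcripts.

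Among 9 snoRNA hosts tested beside the members, 2 rose after acute L-DOPA, Snhg1 by 0.51 and Snhg12 by 0.36, against 6.85% of all transcripts, and none was called after chronic L-DOPA, where the list median was 0.00. The same 2 were lower in the lesioned striatum under the chronic schedule, by 0.58 and 0.35 on the log2 scale, against 11.2% of all transcripts. Of the other genes of the Dlk1-Dio3 domain, Dlk1, Rtl1, Dio3, Dio3os and Begain, none of those tested was called in any comparison. Of 12 genes around Malat1 and Neat1, 1 rose and 1 fell after acute L-DOPA, Frmd8 by 0.28 and Ehbp1l1 by -0.37, against 6.85% of all transcripts higher and 6.02% lower, and their median was 0.07. After chronic L-DOPA 1 of 13 rose, Ltbp3 by 0.63, and 1 fell, Ehbp1l1 by -0.39, against 7.71% higher and 4.33% lower, so both counts were near the background. Between the schedules 3 of 12 were lower in the lesioned striatum, Frmd8 (-0.72), Slc25a45 (-0.62) and Dpf2 (-0.24), 1 was higher, Pola2 (0.77), against 11.2% of all transcripts lower and 12.1% higher, and none was called in the unlesioned striatum. Of 13 further long noncoding RNAs tested, none rose and 1 fell in each lesion comparison, in both cases Peg13, an imprinted RNA (-0.20 and -0.43), near the 6.02% and 4.33% of all transcripts called lower. In the lesioned striatum 5 of these 13 were lower under the chronic schedule, led by Dleu2 (-1.65), B230206H07Rik (-1.20) and Sox2ot (-1.07), and 1 was higher, against 11.2% and 12.1% of all transcripts. In the unlesioned striatum 1 of 13 was lower, Dleu2 (-0.97, SE 0.15, adjusted p = 0.0132), against 1.64% of all transcripts.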

How the data were processed

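Libraries were made with a TruSeq RNA kit, sequenced on a Genome Analyzer and mapped by the authors to mm9 with Genomatix software, whose settings for strand and for reads with several positions are not given in the sources used here. The deposited counts are reads per transcript without normalization. The deposited table also has a normalized expression signal, which served only to check the counts against transcript length. DESeq p-values and fold changes in the authors' comparison tables were not used, nor were 36 per-sample columns in them.

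The 296 transcripts without a symbol (0.0485% of counts) were left out. Each comparison was fitted on its 6 libraries, and the interaction on all 12, with edgeR 4.0.16 (R 4.3.3, limma 3.58.1; filterByExpr, TMM, glmQLFit, glmQLFTest), after tests on simulated counts. CPM used TMM library sizes. Each standard error is the log2 fold change divided by the root of F. Tables were made with Python 3.11.15. mm9 coordinates came from the table, sequences from NCBIM37 (the same build) and RefSeq.

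The members and gene lists were chosen with earlier results of these data known. Named genes were the members, genes that overlap them, the 3 genes most like each (Pearson's r of log2(CPM + 0.5)) and, from each list, up to 4 called genes with large changes.

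Same-numbered libraries deviated together from their group means (acute 0.478, 0.445 and 0.390, chronic 0.519, 0.565 and 0.152, over genes with at least 1 CPM on average), above the limit of 0.1. The replicate numbers were therefore taken as pairs within each treatment in an alternative fit with a block. The main fits and their p-values hold no such block. Pairs of different numbers were at -0.109 or lower for the acute schedule and at 0.155 or lower for the chronic schedule, where lesioned replicate 1 with unlesioned replicate 3 (0.155) was as high as the pair of replicate 3. Replicates differed beyond counting error, with a chi-square of 7.35 or more per degree of freedom. Alternatives were DESeq2 1.42.0, its size factors, no filter, an adjusted p under 0.01, a single transcript or the sum of transcripts per gene, transcripts without overlap, a fit over 12 libraries, the replicate block, a cortical marker score as covariate, and each library left out.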

Additional observations from a re-analysis of the deposited data

Results flagged for a closer look

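The lesion effects of Malat1, Neat1 and Gas5 were smaller after chronic than after acute L-DOPA when the replicate number was used as a block within each treatment. The differences of log2 fold changes were -0.31 for Malat1, -0.51 for Neat1 and -0.49 for Gas5. In edgeR's fit of all libraries without the block or a covariate none of the 3 passed the test of the difference, whereas DESeq2 without the block called Neat1 and Gas5 (adjusted p = 0.049 and 0.0494), and edgeR with the cortical score called Neat1 (adjusted p = 0.0113).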

How the results depend on the processing

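With 3 libraries a group the number of calls moved with the processing. Of 387 member estimates under settings that keep all libraries, 363 kept direction and call. The estimates that turned sign were Meg3 (-0.14) and Snhg11 (-0.037) after acute L-DOPA and Neat1 after chronic L-DOPA (-0.26) with the cortical score, and Neat1 after chronic L-DOPA (-0.0053) in the transcript without overlap. Gas5 has no such transcript, so that fit was not run. Cause was not tested for any of these.

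As each library was left out, the log2 fold change ran from -0.078 to 0.16 for Neat1 and from -0.079 to 0.30 for Snhg11 (chronic lesion), from -0.23 to 0.091 for Malat1 and from -0.24 to 0.083 for Rian (lesioned striatum between schedules), from -0.28 to 0.064 for Miat and from -0.023 to 0.22 for Gas5 (unlesioned striatum), and from -0.063 to 0.41 for Meg3 and from -0.23 to 0.14 for Snhg11 (difference of the lesion effects). The members called ran from 3 to 5 (acute lesion), 0 to 3 (chronic lesion), 1 to 3 (lesioned striatum), 0 to 2 (unlesioned striatum) and 0 to 1 (difference), and the transcripts called from 9547 to 15328, 9137 to 14864, 16025 to 36534, 66 to 14377 and 3794 to 9536.

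With the replicate block 28237 transcripts were called for the acute lesion, 27505 for the chronic lesion, with 5 members, and 15876 for the difference, with 3 members. In the acute lesion comparison the block changed no member call. Between the schedules it also changed none, but there it joined libraries of different mice by number, so it could not test pairing. The members called were 1 (chronic lesion) and 2 (difference) with DESeq2, 1 (difference) with the cortical score, 1 (chronic lesion) and 0 (unlesioned striatum) with summed transcripts, and 0 (chronic lesion), 1 (lesioned striatum) and 0 (unlesioned striatum) at an adjusted p under 0.01. Malat1 in the chronic lesion comparison had an adjusted p of 0.0636 with DESeq2 and of 0.0792 with summed transcripts. In the order acute lesion, chronic lesion, lesioned striatum, unlesioned striatum and difference, the transcripts called were 3135, 2663, 4914, 544 and 1053 with a single transcript per gene, 2643, 2311, 4310, 101 and 951 with summed transcripts, and 6707, 7079, 12545, 108 and 2474 at an adjusted p under 0.01, the first 2 settings testing fewer features. They were 8321 (chronic lesion) and 5314 (unlesioned striatum) with the cortical score, 22946 (chronic lesion) in the fit over 12 libraries, and 6278 with DESeq2 and 5821 without a filter (both unlesioned striatum).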
